A study of Mus musculus with 5 samples.

Results

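Costimulatory and checkpoint genes encode surface or secreted proteins through which one immune cell raises or lowers the activity of another. The mouse genes described here are Cd274, Pdcd1lg2, Cd80, Cd86, Icosl, Cd40, Lgals9, Havcr2, Sirpa and Cd200r1. They were chosen by symbol, and all 10 were found among the 27526 genes of the authors' normalized table. Several are receptors and not ligands. A T cell that meets antigen needs a further signal through its receptor CD28, which binds CD80 and CD86 on the presenting cell, whereas PD-L1 and PD-L2 (from Cd274 and Pdcd1lg2) bind PD-1 on the T cell and restrain it. On myeloid cells themselves, SIRPα, CD200R1 and TIM-3 (from Sirpa, Cd200r1 and Havcr2) receive signals that dampen phagocytosis or cytokine release. Myeloid leukaemia cells can carry many of these molecules.

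The RNA came from leukaemia stem cells of mice, labelled as positive for the receptor Kit, in an AML1-ETO9a model, in which a truncated form of the human RUNX1-RUNX1T1 fusion drives an acute myeloid leukaemia. Both groups were labelled as AML1-ETO9a. One group had wild-type Plcg1 (+/+, 2 libraries, replicates 1 and 3) and the other a conditional deletion of Plcg1 (-/-, 3 libraries, replicates 2, 4 and 6), the gene for phospholipase C-γ1, which makes diacylglycerol and inositol trisphosphate below cell surface receptors. No source used here gives the driver of the deletion, the age of the mice or whether each library came from its own mouse. The p-values therefore measure the spread between these 5 samples only, and that spread may be technical.

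Transcripts of the targeted gene did not separate the labels. Libraries held 37306507 to 57133771 gene counts. Plcg1 was at 22.1 and 34.0 CPM (counts relative to the library total, scaled between libraries with TMM factors) in the wild-type libraries and at 26.9 to 53.0 CPM in the deleted ones. That is a log2 fold change of 0.48 ± 0.37 (SE; adjusted p = 0.543), and 0.16 to 0.82 over 12 alternative settings. Counts per gene cannot show the loss of single exons, so this checks the labels in part only. Runx1t1, the mouse gene for ETO, had 5 and 13 counts under the wild-type label and 598 to 6035 under the deleted label, so the libraries labelled wild-type held almost no transcript counted under that gene. Whether reads of the fusion transcript are counted there was not tested. Deleted 6 stood apart: Kit itself was at 3.08 CPM there, against 672 CPM in deleted 2, 304 CPM in deleted 4 and 26.8 to 32.1 CPM in wild-type. The macrophage lysozyme Lyz2 was at 68117 CPM in deleted 6 and at 7215 to 15417 CPM in the other 4 libraries. Group names below therefore refer to labels, values are listed in the order wild-type 1, 3 and deleted 2, 4, 6, and each main result is given with and without deleted 6. In bulk RNA, fewer cells of a type and less RNA per cell cannot be told apart.

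Cd274, Havcr2 and Cd200r1 had higher values in every deleted library than in either wild-type library, and Pdcd1lg2 had higher values in deleted 2 and 4 only. Cd80, Cd86, Cd40 and Sirpa were also highest in deleted 6, but in deleted 2 Cd80 and Cd86 lay below both wild-type libraries, Sirpa between them and Cd40 just above. Lgals9 and Icosl had slightly lower mean values under the deleted label. With all 5 libraries, edgeR's quasi-likelihood test called none of the 10 genes at an adjusted p under 0.05, as it called 0% of the 16120 tested genes in either direction. At an unadjusted p under 0.05 there were 3 members higher (9.44% of all tested genes) and 0 lower (5.42%). DESeq2 called 3 members higher (5.75% of all tested genes), limma-voom, weighting samples by quality, called 4 (7.63%), and neither called one lower (3.05% and 5.87%). Without deleted 6, edgeR called 4 of the 10 higher (7.89% of 15787 tested genes) and 0 lower (5.07%).

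**Figure D1:**
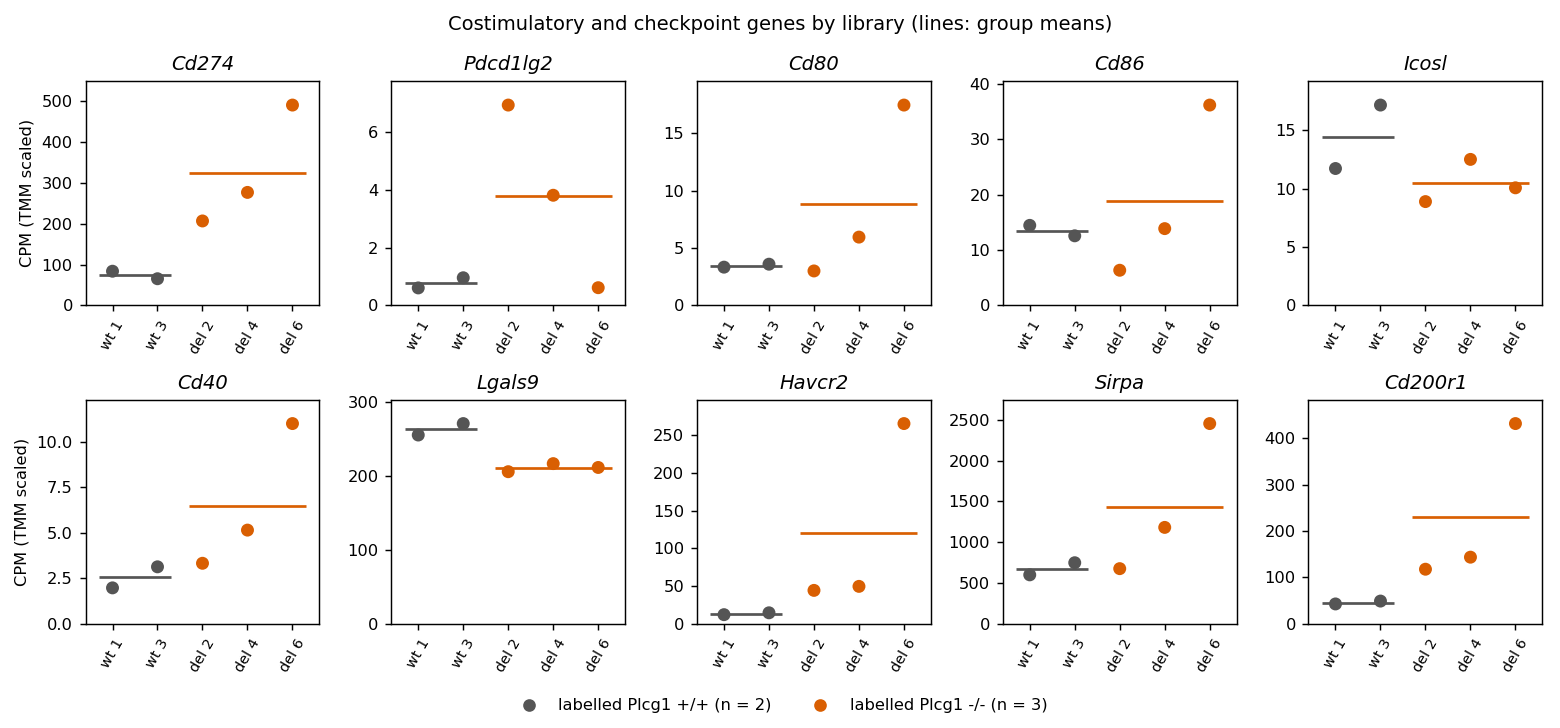
Level of each of the 10 genes in each library, in TMM-scaled CPM on a linear axis from 0; points are single libraries and lines are group means. Cd274, Havcr2 and Cd200r1 lie above both wild-type libraries in all 3 deleted libraries, while Pdcd1lg2 returns to 0.611 CPM in deleted 6.

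The ligands of PD-1 come first. Cd274 (mm10 chromosome 19, 29367455 to 29388095, plus strand) measured 83.6 and 65.2 CPM under the wild-type label and 207, 277 and 491 CPM under the deleted label. The groups did not overlap, and the lowest deleted library stood 2.78-fold above the wild-type mean. The wild-type mean was 74.4 ± 13.0 CPM (SD, n = 2) and the deleted mean 325 ± 148 CPM (SD, n = 3), a log2 fold change of 2.13 ± 0.45 (SE; edgeR adjusted p = 0.184). Without deleted 6, Cd274 rose by 1.71 ± 0.20 on the log2 scale (adjusted p = 0.00400). DESeq2 with all 5 libraries gave 2.12 (adjusted p = 0.000795), and across all 12 alternative settings the adjusted p ran from 0.000795 to 0.84. The upper end of this and of the ranges below comes from leaving out a wild-type library. The remaining one is then assumed to vary like the deleted libraries, and no gene of the whole table had an adjusted p under 0.83, so those settings say nothing about stability. An antisense gene overlaps 11055 bases of Cd274, introns included, and the library kit did not mark strand. Reads from any exon bases shared by both genes cannot be told apart, and whether exons overlap was not checked.

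Pdcd1lg2 begins 22.8 kb downstream of Cd274 on the same strand (chromosome 19, 29410919 to 29471161) and behaved differently in deleted 6. It had 25 and 53 counts under the wild-type label, then 396, 202 and 27 under the deleted label. In CPM these were 0.603, 0.955, 6.94, 3.81 and 0.611, so deleted 2 and 4 lay above both wild-type libraries and deleted 6 lay among them. All 5 libraries gave a log2 fold change of 2.28 ± 1.06 (SE; edgeR adjusted p = 0.378). Without deleted 6 the gene rose by 2.79 ± 0.44 (adjusted p = 0.0112; 0.0112 to 0.84 over 11 settings), and without deleted 2 the value was 1.51 ± 0.99. It too overlaps an antisense gene, over 6412 bases, introns included.

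The B7 costimulatory ligands of CD28 and ICOS did not separate the labelled groups. Cd80 (chromosome 16, 38455561 to 38496335) measured 3.33 and 3.58 CPM under the wild-type label and 3.00, 5.95 and 17.5 CPM under the deleted label. The groups overlapped through deleted 2, and deleted 6 was 2.94-fold above the next library. Its log2 fold change of 1.35 ± 0.80 (SE; adjusted p = 0.460) was 0.38 ± 0.38 (adjusted p = 0.581) without that library.

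Cd86 (chromosome 16, 36603869 to 36666081, minus strand) measured 14.5 and 12.6 CPM under the wild-type label and 6.34, 13.9 and 36.2 CPM under the deleted label. Deleted libraries were thus both the lowest and the highest of the 5. The log2 fold change was 0.48 ± 0.74 (SE; adjusted p = 0.745) and turned to -0.41 ± 0.36 without deleted 6 (adjusted p = 0.537), and it was 0.89 ± 0.53 without deleted 2. Icosl, which encodes the ligand of the T cell costimulator ICOS (chromosome 10, 78069302 to 78083913), measured 11.7 and 17.1 CPM under the wild-type label and 8.88, 12.5 and 10.1 CPM under the deleted label. The ranges overlapped, and the log2 fold change was -0.46 ± 0.30 (adjusted p = 0.482), and -0.42 ± 0.27 with deleted 6 left out (adjusted p = 0.379). It depended on the wild-type libraries, at -0.71 without wild-type 1 and -0.16 without wild-type 3.

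Cd40 encodes the receptor through which helper T cells license antigen-presenting cells (chromosome 2, 165055627 to 165072948). It was low, with 82 and 174 counts under the wild-type label and 190, 273 and 487 under the deleted label. In CPM the wild-type libraries were at 1.98 and 3.13 and the deleted ones at 3.33, 5.15 and 11.0. The groups did not overlap, but wild-type 3 and deleted 2 lay next to each other. Its log2 fold change of 1.34 ± 0.63 (SE; adjusted p = 0.380) was 0.74 ± 0.38 (adjusted p = 0.261) without deleted 6.

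Havcr2, which encodes the inhibitory receptor TIM-3 (chromosome 11, 46454935 to 46481255), had the largest fitted difference of the 10 with all 5 libraries, though Pdcd1lg2 exceeded it without deleted 6. It measured 12.1 and 14.6 CPM under the wild-type label and 44.3, 49.6 and 265 CPM under the deleted label. The groups did not overlap, and deleted 6 was 5.35-fold above the next library. The wild-type mean was 13.4 ± 1.74 CPM (SD, n = 2) and the deleted mean 120 ± 126 CPM (SD, n = 3), a log2 fold change of 3.16 ± 0.99 (SE; edgeR adjusted p = 0.285). Without deleted 6, Havcr2 rose by 1.82 ± 0.17 (adjusted p = 0.00207; 0.00207 to 0.84 over 12 settings).

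Lgals9 encodes galectin-9, a sugar-binding protein described as a ligand of TIM-3 (chromosome 11, 78962974 to 78984946, minus strand). It measured 255 and 271 CPM under the wild-type label and 206, 217 and 211.5 CPM under the deleted label. It was the steadiest of the 10 genes, and both wild-type values exceeded all deleted values. The log2 fold change of -0.32 ± 0.17 (SE) did not pass (edgeR adjusted p = 0.418, and 0.182 without deleted 6, at -0.30 ± 0.13). The receptor and its described ligand thus had opposite signs in these libraries, in every setting run.

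The promoter of Havcr2 is shown because it held matches to binding motifs of RUNX1 (AML1), the DNA-binding partner in the fusion, and of PU.1, a master regulator of myeloid cells. Those of Cd274 and Lgals9 are shown beside it, as the other gene higher in all deleted libraries with a RefSeq window and the only gene lower in all of them. Each is the 130 bases before the RefSeq transcription start (GRCm38.p6), 5′ to 3′ on the gene's strand, with motif matches in capitals.
Havcr2, chr11:46454801-46454930, plus strand: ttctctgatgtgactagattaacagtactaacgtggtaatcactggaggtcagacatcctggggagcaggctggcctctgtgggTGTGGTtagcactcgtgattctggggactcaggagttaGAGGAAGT
Cd274, chr19:29367308-29367437, plus strand: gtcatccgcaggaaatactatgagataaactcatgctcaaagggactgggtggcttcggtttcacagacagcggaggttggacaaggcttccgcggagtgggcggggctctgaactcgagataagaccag
Lgals9, chr11:78984925-78985054, minus strand: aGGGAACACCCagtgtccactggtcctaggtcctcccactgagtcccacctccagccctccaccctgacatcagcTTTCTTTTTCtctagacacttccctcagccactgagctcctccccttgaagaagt

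RefSeq promoter windows (250 bases before to 50 after the start) were found for 6 of the 10 genes: Havcr2, Lgals9, Cd274, Pdcd1lg2, Cd80 and Icosl. On either strand, the RUNX motif TGTGGT occurred in 3 of these 6 windows and in 16.8% of all 32851 windows. Counting from 0 at the first transcribed base, it lay at -46 to -41 in Havcr2, at 10 to 15 in Lgals9 and at 1 to 6 in Pdcd1lg2. The PU.1 motif GAGGAAGT was in the Havcr2 window alone, at -8 to -1, and in 3.20% of all windows. The interferon element, GAAA, 2 bases of any kind and GAAA, occurred in the Lgals9 window (3.44% of all), where its matches lay at -55 to -46 and 15 to 24. In Lgals9 the second of these shares 1 base with the RUNX match. The NF-kB pattern, GGG, 5 bases of any kind and CC, was in 4 of the 6 windows and in 50.8% of all. The NFAT core TGGAAA was in 0 of the 6, against 21.4% of all windows. In the Cd274 window none of these letters was found. A match describes the sequence and shows no binding.

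The inhibitory receptors of myeloid cells differed in how far the groups separated. Sirpa, whose product binds the "do not eat me" protein CD47 (chromosome 2, 129592835 to 129632228), measured 599.9 and 748 CPM under the wild-type label. Its deleted values were 676, 1181 and 2453 CPM, so deleted 2 lay between the wild-type libraries. Its log2 fold change of 1.09 ± 0.60 (SE; adjusted p = 0.433) became 0.47 ± 0.28 (adjusted p = 0.326) once deleted 6 was left out.

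Cd200r1 encodes the receptor of CD200, which restrains macrophages and mast cells (chromosome 16, 44765736 to 44794978). It measured 42.9 and 49.1 CPM under the wild-type label and 118, 144 and 432 CPM under the deleted label. The groups did not overlap, and the lowest deleted library stood 2.56-fold above the wild-type mean. The wild-type mean was 46.0 ± 4.38 CPM (SD, n = 2) and the deleted mean 231 ± 174 CPM (SD, n = 3), a log2 fold change of 2.33 ± 0.67 (SE; edgeR adjusted p = 0.265). Without deleted 6 it rose by 1.52 ± 0.16 (adjusted p = 0.00262; 0.00262 to 0.84 over 12 settings). Sirpa and Cd200r1 have close relatives in the genome, and how reads shared with those were counted stands in no source used here, so their levels are uncertain to that extent.

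**Figure D2:**
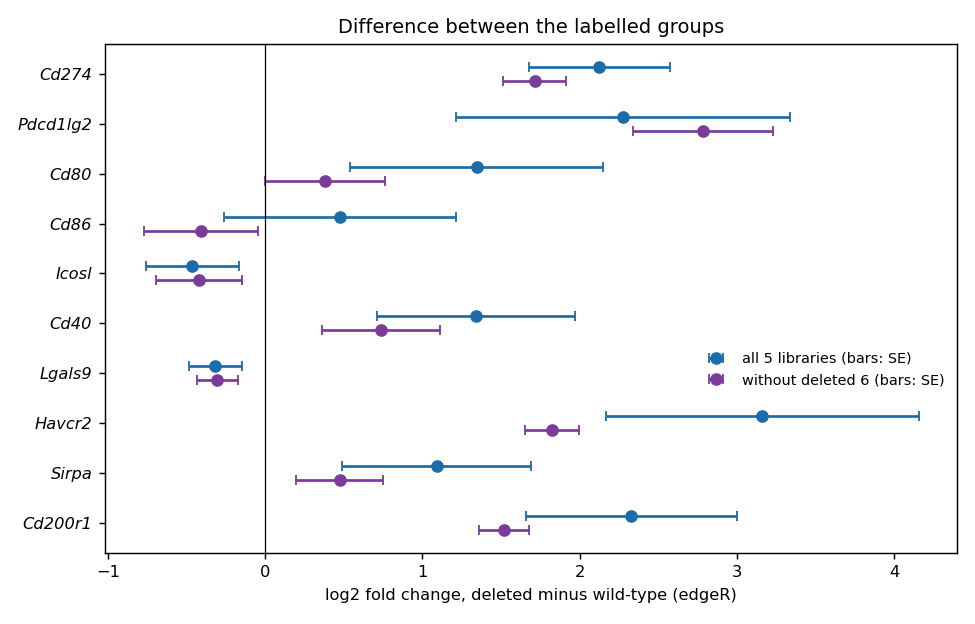
Log2 fold change of each gene, deleted minus wild-type, from edgeR with all 5 libraries (blue) and without deleted 6 (purple); bars are SE. Cd274, Pdcd1lg2, Havcr2 and Cd200r1 lie between 1.52 and 2.79 without deleted 6, Cd80 and Sirpa lie at 0.38 and 0.47, and Cd86 changes sign.

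Set against all genes, 4 of the 10 members (Cd274, Cd40, Havcr2 and Cd200r1) had every deleted library above both wild-type libraries, as did 22.4% of all tested genes. In 1 of 10, Lgals9, every deleted library lay below, as in 23.7% of all. Without deleted 6 the counts were 5 above (29.6% of all genes) and 1 below (29%). The median log2 fold change of the 10 was 1.35, and 0.61 without deleted 6, where the medians of all tested genes were 0.01 and -0.01. With other single libraries left out, the count above was 6 without wild-type 3 (29.8% of all genes) and without deleted 2 (30.3%), and 4 without wild-type 1 (30%) and without deleted 4 (26%). The count below was 2 without wild-type 1 (31.9% of all genes) and without deleted 4 (27.1%), and 1 without wild-type 3 (31.8%) and without deleted 2 (31.4%). Scaled by library totals only, 4 lay above (16.3%) and 2 below (30.7%). With no filter on low counts, 1 member, Cd274, was called higher (0.539% of 30253 genes) and 0 lower (0.38%). Deleted 6 held the highest value of the 5 libraries in 7 of the 10 genes, as it did in 36.2% of all tested genes, and the lowest in none (37.9% of all).

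The sequencing lane in the file names could be held constant only in lane 4, with wild-type 3 and deleted 2 and 4. There Havcr2 was 1.70 ± 0.20 higher (SE; edgeR adjusted p = 0.0415), the only member of the 10 called higher (1.26% of 16806 tested genes), and 0 were called lower (0.779%). The deleted pair lay above wild-type 3 in 5 members (40.3% of all genes) and below it in 2 (39.3%). Cd274, Cd200r1 and Pdcd1lg2 had log2 fold changes of 1.90, 1.43 and 2.50 (adjusted p = 0.0516, 0.0584 and 0.116). These p-values assume for wild-type 3, which stands alone, the spread of the deleted pair. Lanes 3 and 5 hold 1 library each.

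Per kb of exon, Sirpa and Lgals9 were the most abundant members and Pdcd1lg2 the least in the wild-type libraries. Sirpa was at 122 and 152 CPM per kb and Lgals9 at 119.5 and 127, and these neighbours overlapped. Cd274 followed at 23.1 and 18.0 CPM per kb, Cd200r1 at 12.8 and 14.7 and Havcr2 at 4.46 and 5.36, each clear of its neighbours in both libraries. Cd86 (3.95 and 3.43) and Icosl (2.54 and 3.71) overlapped, as did Cd80 (0.898 and 0.968) and Cd40 (0.580 and 0.920). Pdcd1lg2 was last at 0.307 and 0.487 CPM per kb. In the deleted libraries the first 6 places by mean were the same, but neighbours overlapped more often: Lgals9 (96.3 to 101 CPM per kb) with Cd274 (57.1 to 136), Cd274 with Cd200r1 (35.2 to 129) and Cd200r1 with Havcr2 (16.3 to 97.5). Sirpa stayed above Lgals9 and Havcr2 above Cd86, and the 5 lowest genes overlapped from each to the next.

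**Figure D3:**
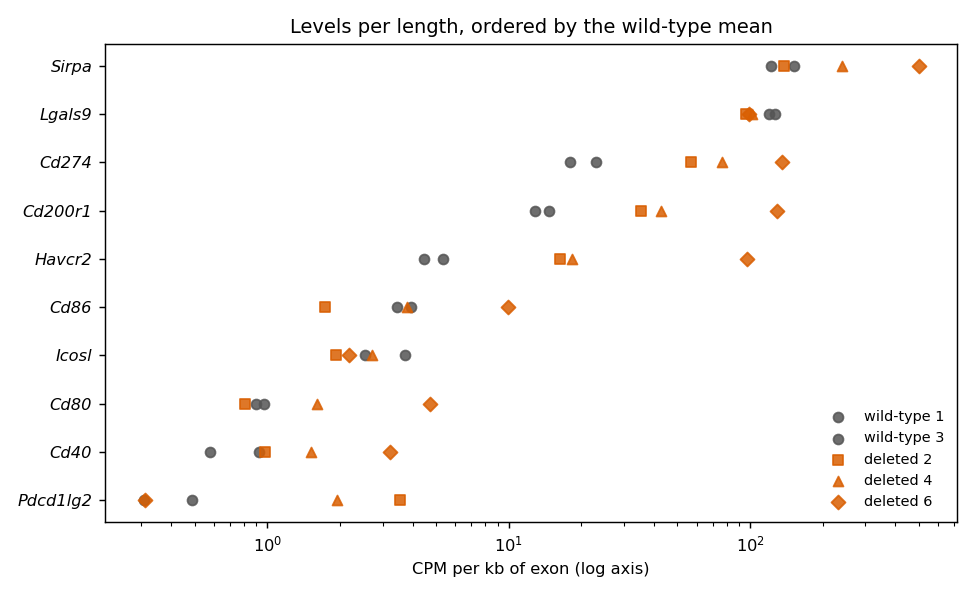
Levels in CPM per kb of exon length on a log axis, 1 row per gene ordered by the wild-type mean; grey circles are wild-type libraries, orange squares, triangles and diamonds are deleted 2, 4 and 6. Havcr2 spans the widest range, from 4.46 to 97.5, and Lgals9 the narrowest, from 96.3 to 127.

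Genes with the most similar profile were ranked among 9065 genes by the root mean square difference of log2 levels over the 5 libraries, after centring each gene. For Cd274 these were Rusc2 (0.0619) and Serpinb9 (0.0900), an inhibitor of granzyme B, with 10.1 and 8.11 CPM under the wild-type label and 28.4, 37.4 and 57.3 CPM under the deleted label. For Havcr2 they were H2-Ab1 (0.0814), a chain of the class II antigen-presenting molecule, and Rps6ka2 (0.0882). H2-Ab1 measured 26.4 and 33.3 CPM under the wild-type label and 94.4, 107 and 659.5 CPM under the deleted label. Cd80 lay nearest to the macrophage lysosomal gene Cd68 (0.101) and to Tmem86a (0.108), and Cd86 to Cd302 (0.119) and Arhgap24 (0.123). Pdcd1lg2 lay nearest to Slc18a2 (0.269), the vesicular transporter of histamine and serotonin, with 11.9 and 15.6 CPM under the wild-type label and 139, 63.1 and 7.92 CPM under the deleted label, and to Chst15 (0.345). The others paired with Pdp1 and Syt11 (Cd40), Gpd1l and Fam172a (Lgals9), Atp2b1 and Tgm2 (Sirpa), Ttyh2 and Ptk2 (Cd200r1) and Ythdc2 and Zfp54 (Icosl). Among the members themselves the closest pair was Cd40 and Sirpa (0.180), followed by Lgals9 and Icosl (0.207). Genes that vary little lie close together by this measure. The SD of the log2 levels was 0.178 for Lgals9 and 0.357 for Icosl, so their small distance need not mean a shared profile. With 5 libraries such likeness is a description only.

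Of the partners that the members bind, 4 receptors or ligands of T cells were nearly undetected and the others were measured. Of 9 partner genes, 5 were tested. In the full set edgeR called 0, and 0 had an unadjusted p under 0.05 (9.44% of all tested genes higher, 5.42% lower). DESeq2 called 0 (5.75% of all higher, 3.05% lower) and limma-voom 1, as lower (5.87% of all). With deleted 6 left out, edgeR called 1, as lower (5.07% of all), and 0 higher (7.89%). Pdcd1, Ctla4, Icos and Cd40lg had at most 11 counts in any library. Cd28 was an exception among the T cell receptors, with 38.4 and 48.5 CPM under the wild-type label and 37.9, 102 and 111 CPM under the deleted label, while the T cell genes Cd3e and Cd3g had 0 counts in all 5 libraries. Its log2 fold change was 0.94 ± 0.50 (SE; adjusted p = 0.419). Cd47, the ligand of SIRPα, measured 1307 and 1332 CPM under the wild-type label and 851, 795 and 325 CPM under the deleted label. The groups did not overlap, with a log2 fold change of -1.01 ± 0.46 by edgeR (adjusted p = 0.374). Without deleted 6, Cd47 fell by 0.67 on the log2 scale (adjusted p = 0.0338; 0.0338 to 0.84 over 12 settings), the only partner called. Rgmb, which encodes a membrane protein bound by PD-L2, had 2.29 ± 0.90 (adjusted p = 0.337), and 1.13 ± 0.33 without deleted 6 (adjusted p = 0.0725), a library in which it was at 34.4 CPM.

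Among 20 other ligands of the B7, TNF, nectin, SLAM and galectin families, 15 were tested and edgeR called 0 in the full set of libraries. At an unadjusted p under 0.05, 5 were higher (9.44% of all tested genes) and 0 lower (5.42%). By DESeq2, 4 passed as higher and 0 as lower (5.75% and 3.05% of all), and by limma-voom 4 and 1 (7.63% and 5.87%). With deleted 6 left out, 4 passed as higher (7.89% of all) and 0 as lower (5.07%) by edgeR. Tnfsf8, the CD30 ligand, measured 1.88 and 2.13 CPM under the wild-type label and 7.13, 5.47 and 20.0 CPM under the deleted label, a log2 fold change of 2.44 ± 0.70 (SE; adjusted p = 0.261). Tnfsf4, the OX40 ligand, had 3 and 34 counts, then 226, 148 and 131 under the deleted label (3.21 ± 0.93, adjusted p = 0.266). Its value rested on wild-type 3, at 5.44 without that library and 2.40 without wild-type 1. Cd276, also called B7-H3, had 2.10 ± 0.63 (adjusted p = 0.274). Without deleted 6 all 3 passed (adjusted p = 0.0161, 0.0412 and 0.0296), and the fourth was Lgals3, galectin-3, chosen after its values were seen. The median of the list was 0.23 with all 5 libraries, against 0.01 for all tested genes. Of the 15 genes, 7 were higher in every deleted library (22.4% of all tested genes) and 2 lower (23.7%).

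Other receptors of the inhibitory families, with their phosphatases and adaptors, lay on both sides of 0. Of 22 genes 20 were tested, of which edgeR called 0 in the full set. At an unadjusted p under 0.05, 4 were higher (9.44% of all tested genes) and 3 lower (5.42%). By DESeq2, 4 passed as higher and 3 as lower (5.75% and 3.05% of all), by limma-voom 4 and 2 (7.63% and 5.87%). With deleted 6 left out, edgeR found Cd200r3, Cd200r4, Lilrb4a and Fcgr2b higher and Clec12a and Milr1 lower, the counts being 4 (7.89% of all) and 2 (5.07%). Of these, Cd200r3 and Cd200r4 encode relatives of CD200R1 that are known to couple to an activating adaptor, so they are not inhibitory. Cd200r4 measured 36.2 and 37.2 CPM under the wild-type label and 192, 194 and 416 CPM under the deleted label. Its log2 fold change of 2.87 ± 0.46 (SE; adjusted p = 0.133) was 2.41 ± 0.13 without deleted 6 (adjusted p = 0.000532). Clec12a, an inhibitory lectin of myeloid cells, went the other way, from 440.5 and 511 CPM to 80.2, 106 and 45.3 CPM. It had -2.63 ± 0.39 (adjusted p = 0.133), and -2.34 ± 0.19 without deleted 6 (adjusted p = 0.00134). Pilra had -1.86 ± 0.48 (adjusted p = 0.230), and -1.66 ± 0.43 without deleted 6 (edgeR adjusted p = 0.0524). Cd200r3, chosen after its values were seen, measured 1.23 and 1.93 CPM under the wild-type label and 192, 66.4 and 4.57 CPM under the deleted label.

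Genes of CD40, NF-kB and interferon signalling, pathways known to induce PD-L1 and CD80, also included the PD-L1 partner Cmtm6. All 22 were tested. In the full set edgeR called 0, and the median was 0.26. At an unadjusted p under 0.05, 5 were higher (9.44% of all tested genes) and 2 lower (5.42%). By DESeq2, 2 passed as higher and 1 as lower (5.75% and 3.05% of all), by limma-voom 5 and 2 (7.63% and 5.87%). With deleted 6 left out, Traf1, Traf5 and Jak2 passed as higher and Ifngr1 and Irf8 as lower by edgeR. These were 3 and 2 of the 22, against 7.89% and 5.07% of all genes. Traf1, an adaptor below CD40 and itself an NF-kB target, measured 5.66 and 5.12 CPM under the wild-type label and 18.2, 26.1 and 46.8 CPM under the deleted label (2.49 ± 0.48, adjusted p = 0.166). Ifngr1, the ligand-binding chain of the interferon-γ receptor, measured 475 and 473 CPM under the wild-type label and 173, 214 and 149 CPM under the deleted label. Its log2 fold change of -1.41 ± 0.22 (adjusted p = 0.133) became -1.28 ± 0.16 (adjusted p = 0.00450) once deleted 6 was left out. Irf8, a factor of monocytes and dendritic cells, had -1.67 ± 0.49 (adjusted p = 0.271). The interferon mediator Irf1, named after its values were seen, was at 35.4 to 50.8 CPM in all 5 libraries, with a log2 fold change of -0.27 ± 0.18 (adjusted p = 0.496). Cd274 was higher and Ifngr1 lower under the deleted label, with no overlap of the groups for either gene. Of all tested genes, 22.4% were separated in the direction of Cd274 and 23.7% in that of Ifngr1. Ifngr2, also on the list and named after its values were seen, measured 134 and 132 CPM under the wild-type label. Its deleted values were 120, 170 and 277 CPM, the highest in deleted 6, as for Cd274. The part of interferon signalling in the Cd274 values was not tested.

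**Figure D4:**
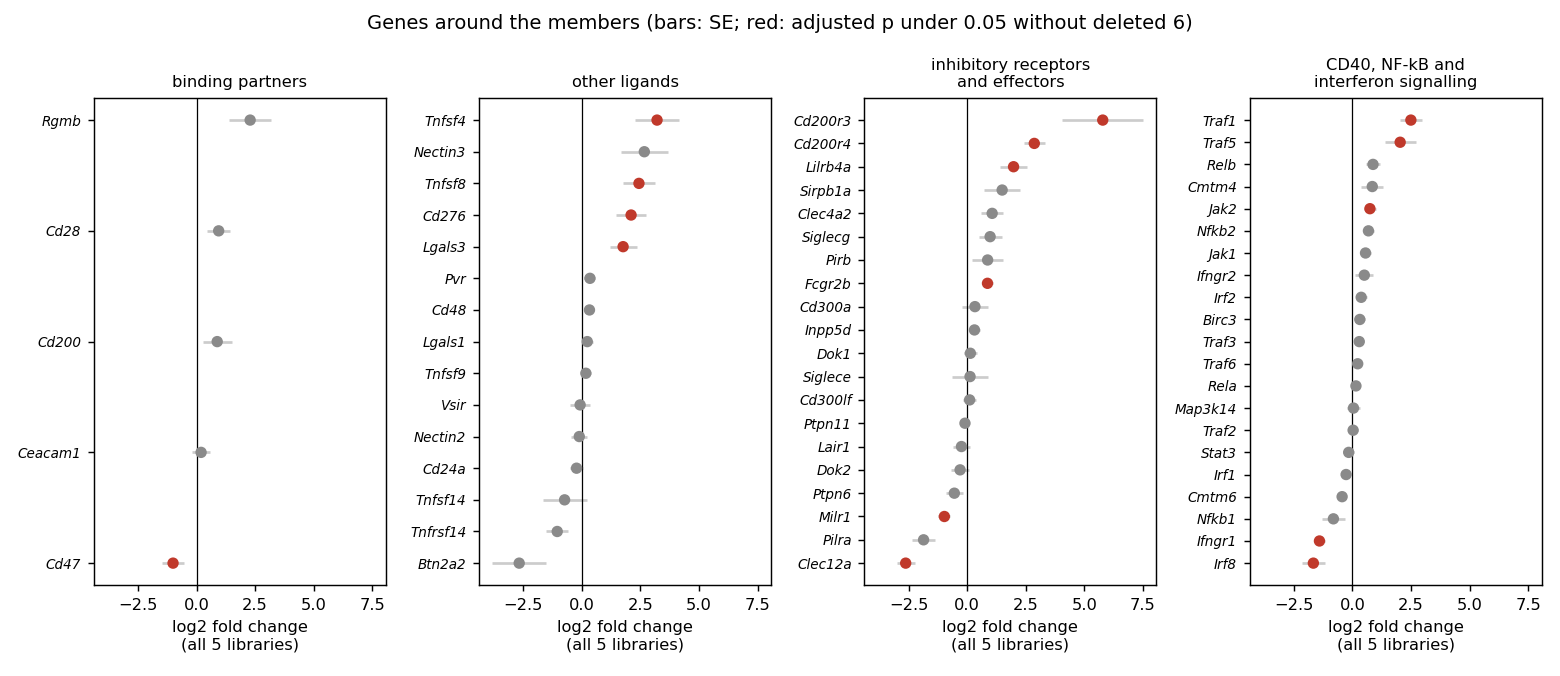
Log2 fold changes, deleted minus wild-type, of all but 1 of the tested genes in the 4 lists around the members, from edgeR with all 5 libraries; bars are SE and red points have an adjusted p under 0.05 without deleted 6. Points lie on both sides of 0 in each list, from -2.68 (Btn2a2) to 5.79 (Cd200r3).

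Markers of antigen-presenting and other cells moved with some of these genes. The conventional dendritic list (8 genes, 7 tested) summed to 14.8 and 16.5 CPM, then 142, 115 and 773 CPM under the deleted label. Itgax, also carried by macrophages, made up most of this sum, at 756 CPM in deleted 6. Of the 6 genes tested without deleted 6, 3 passed as higher by edgeR (7.89% of all tested genes). These were Itgax, Zbtb46 and Clec10a, named after their values were seen. The defining markers Xcr1 and Clec9a stayed at or below 0.950 CPM, and Cd209a had at most 2 counts in any library. Of the 7 tested genes, 4 were higher in every deleted library (22.4% of all tested genes) and 1 was lower (23.7%). Those higher were Itgax, Zbtb46, Clec9a and Batf3. Clec9a had 1 and 3 counts, then 14, 7 and 42, and Batf3 had 2 and 18, then 32, 55 and 46. The gene that was lower was Xcr1, at 0.675 and 0.540 CPM, then 0.368, 0.227 and 0.181. Flt3, at 0.386 and 3.12 CPM, then 0.245, 0.793 and 0.181, also had a lower mean under the deleted label. The mature dendritic list (6 genes, 4 tested) summed to 2.72 and 1.50 CPM, then 20.0, 20.8 and 3.17 CPM under the deleted label, so that deleted 6 again lay near wild-type, as for Pdcd1lg2. Ccr7, Ccl22 and Fscn1 made up most of this sum. Il12b reached at most 0.887 CPM, and Lamp3 and Ccl17 had at most 9 counts in any library. The mast cell and basophil list (8 genes, all tested) summed to 89.8 and 141 CPM, then 8813, 3761 and 31.1 CPM under the deleted label. Pdcd1lg2 and Cd200r3 were likewise higher in deleted 2 and 4 than in deleted 6. Cd200r1 differed, with its highest value in deleted 6, at 432 CPM. The part of these markers in the values of Pdcd1lg2, Cd200r1 and Cd200r3 was not tested.

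The monocyte and macrophage list (12 genes) summed to 12401 and 11974 CPM, then 9292, 19360 and 74047 CPM under the deleted label, with Lyz2 the main part. Deleted 6 was the highest library in 6 of these 12 genes and the lowest in 3. Cd274, Havcr2, Cd200r1, Cd80, Cd86, Cd40 and Sirpa also had their highest values in that library. Within the list, named after their values were seen, the macrophage genes Adgre1 (195 and 244 CPM, then 362, 628 and 731) and Mrc1 (18.3 and 41.5 CPM, then 211, 424 and 219) were higher in every deleted library. They were the only 2 of the 12 (22.4% of all tested genes), while 4 were lower in every deleted library (23.7%). Those 4 included Fcgr1 (26.8 and 32.8 CPM, then 3.36, 16.8 and 4.03) and Cx3cr1 (10.1 and 22.9 CPM, then 1.40, 9.70 and 0.317). Without deleted 6, Adgre1 and Mrc1 passed as higher (edgeR adjusted p = 0.0368 and 0.00714). The monocyte genes Ccr2 and Ly6c2, also of those 4, passed as lower (0.0307 and 0.00777). The part of monocyte and macrophage content in the values of these 7 members was not tested. Neutrophil granule genes summed to 115 CPM in deleted 6 and to 14152 to 20134 CPM in the other 4. Markers of B cells, which also carry CD40, CD80 and CD86, were near 0: Ms4a1 and Pax5 had at most 8 counts in any library, and the list's sum was largest in the wild-type libraries, at 16.5 and 21.8 CPM, mostly Cd79b. T cell markers summed to 3.21 to 5.13 CPM, mostly Lck. The natural killer list summed to 0.475 to 105 CPM, nearly all of it Nkg7, with Ncr1 at 0 counts in all 5 libraries. Plasmacytoid dendritic genes summed to 113 to 205 CPM, mostly Bst2 and Tcf4, and the defining marker Siglech reached at most 0.450 CPM.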

How the data were processed

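Per the labels' protocols, complementary DNA came from the SMART-Seq v4 kit and libraries from Nextera XT, neither of which marks strand, read from one end over 50 bases. The submitters' processing notes name mm10, STAR, bcl2fastq (1.8.4) and DESeq2 (1.12.4), with no annotation or counting settings. The authors deposited read counts for 46603 genes per library, a normalized signal table that equals those counts over 1 size factor per library, and a log2 table of the same 27526 genes that was not used. The 5 rows of each file that name no gene held 23.7% to 30.1% of its counts and were left out.

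Counts were filtered with filterByExpr (16120 genes; all 10 members passed), scaled with TMM and tested by quasi-likelihood in edgeR (edgeR 4.0.16, limma 3.58.1, DESeq2 1.42.0, R 4.3.3) on genotype, with 3 residual degrees of freedom and Benjamini-Hochberg adjustment over all tested genes. SE is the log2 fold change over the square root of F. The smallest two-sided exact permutation p for 2 against 3 libraries is 0.1, and no such test was made. A gene with 0 counts is limited to 0.0526 to 0.0723 CPM on the TMM scale (3 counts; counting error only). No pair of libraries was a copy, the lowest chi-square per gene being 44.7. The script was tested on simulated data. Exon lengths and gene coordinates are from GENCODE M21 (GRCm38, the same build as mm10), promoters from RefSeq.

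The members and lists were chosen with earlier results of these data known. Named genes are the members, Plcg1, from each of 4 lists the 3 genes with the smallest p where none was called, and for each member the 2 most similar profiles (log2 of CPM plus 0.1) among genes whose average log2 CPM as edgeR reports it (close to the log2 of the mean CPM) reaches 3. Alternatives were other tools, scalings and filters, each library left out, and lane 4 alone. Single genes and 1 motif of these lists are not reported here.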

Additional observations from a re-analysis of the deposited data

How the results depend on the processing

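Of 119 values of the 10 members under 12 alternative settings, 116 kept their direction. The 3 that reversed were all of Cd86, at -0.14 with limma-voom, -0.41 without deleted 6 and -0.30 in lane 4 alone; with single libraries left out its values ran from -0.41 to 0.89. The cause was not tested, but limma-voom gave deleted 6 a weight of 0.12. Members called higher numbered 3 with DESeq2, 4 with limma-voom, 1 with no filter on low counts, 1 in lane 4 alone and 0 to 4 with single libraries left out, the 4 arising without deleted 6 and 0 in the rest. No member was called lower in any setting. Genes called higher and lower numbered 927 and 492 with DESeq2, 1230 and 947 with limma-voom, 163 and 115 with no filter, 211 and 131 in lane 4 alone, and 0 to 1245 and 0 to 800 with single libraries left out. Members with every deleted library below wild-type numbered 2 with library totals only and in lane 4 alone, and 1 to 2 with single libraries left out (2 without wild-type 1 or deleted 4), against 1 with all 5 libraries. Library totals alone moved the median of all genes to -0.19. Under a filter of CPM of at least 1 in every library, Pdcd1lg2 was not tested. No paired analysis was possible because the labelled groups share no replicate number. Its few counts limit the precision of Pdcd1lg2 in wild-type and deleted 6.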
